A study of Mus musculus with 5 samples.

Results

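A set of 8 genes that move iron out of cells, bring it in, store it or sense it was followed in the mouse cardiac progenitor clones 1D, 11B, 20B, 30 and 42. They were Slc40a1, Heph, Tfrc, Slc11a2, Fth1, Ftl1, Ireb2 and Aco1, chosen by symbol with earlier results of these data known. These 8 genes are among 18193 named on the array, and 22 of its 45101 probe sets carry their symbols. Ferroportin, the product of Slc40a1, stood out: its ratio was 0.163 in clone 30, against 0.787 to 1.792 in the other clones. Tfrc, the transferrin receptor, was at 0.189 in clone 11B and 0.438 in clone 30 on 1 probe set, against 1.00 to 1.32 in the other clones, and the same clones were lowest by a far smaller margin on a control probe set of the array. The 5 ferritin probe sets had small differences, all with clones 30 and 42 lowest.

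All 5 clones derived from left ventricles of adult animals aged 5 to 6 months, of a strain that the labels spell C67BL/6, and the labels name no treatment or mutation. The cells were taken with an antibody to Sca-1, grown as spheres, expanded and cloned with rings and by dilution, and the labels call them c-kit+. Total RNA of each clone was hybridised to 1 Affymetrix array. The title of the series concerns differences in SDF-1 production among such cells. Each clone is a group of 1 array with no replicate, no difference can be tested, and a difference between clones cannot be told apart from one between cultures or RNA preparations. The array averages many cells, so fewer expressing cells and less RNA per cell cannot be told apart.

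The deposited values are ratios. In 18926 probe sets the median clone stands at exactly 1, so each value is read as a multiple of that median; in the others, the median lies below 1 and the divisor is taken to be a floor. A ratio compares clones within 1 probe set and gives no expression level, so levels of different genes cannot be set side by side. A probe set is called measured here if its median was 1 or any clone exceeded 1, and if its clones spanned more than 0.05 log2 units. A difference of 1 log2 unit, which is 2-fold, is used as a fixed size in place of a test. The spread expected of a single probe set was 0.30 log2 units (SD), from 6681 pairs of measured probe sets of the same gene, whose values differed with an SD of 0.42. It holds disagreement between probe sets on the same arrays and no variation between cultures or RNA preparations, so it cannot show that clones differ. The 18 hybridization controls, which carry array error only, had an SD of 0.075. RNA integrity was compared by dividing the deposited ratio of a 5' control by that of the 3' control. Such a 5' to 3' ratio compares clones only, and a value near 1 does not show intact RNA. For Actb it was lowest in clones 11B and 30, at 0.597 and 0.743, while clones 1D, 20B and 42 lay between 1.00 and 1.083. For Gapdh the lowest were 0.924 in clone 11B and 1.00 in clone 30. Of the markers in the labels, Kit was at 1.183 in clone 20B and 0.991 to 1.002 in the others. Ratios as flat as those of the other clones need not measure the gene, so the size of the excess in clone 20B is uncertain. Pou5f1 was not measured, and Ly6a, which encodes Sca-1, had no probe set of its own.

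Iron reaches most cells bound to transferrin, which the receptor encoded by Tfrc carries into endosomes, and the divalent metal transporter encoded by Slc11a2 then moves it into the cytosol. What is not used is stored in ferritin, a shell of the heavy and light chains encoded by Fth1 and Ftl1, or leaves through ferroportin, the only iron exporter known in mammals, helped by copper ferroxidases such as hephaestin, encoded by Heph. The iron regulatory proteins encoded by Aco1 and Ireb2 sense cytosolic iron: when it is scarce they bind hairpins called iron-responsive elements, blocking translation of ferritin and ferroportin mRNA and stabilising that of the transferrin receptor. An array reads mRNA alone, so control of translation is not seen in these values. In the heart, ferroportin of cardiomyocytes is known to guard against iron overload.

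Promoter sequences are shown for the ferritin genes, which had the same 2 clones lowest, and for Tfrc, the uptake gene whose probe sets disagreed. They come from RefSeq on GRCm38.p6, and each line gives the 150 bases before an annotated start, written 5' to 3' on the gene's strand. Of the 8 genes 5 matched the table, with 7 starts between them. Fth1 and Tfrc had 2 starts each, and the one with a CCAAT box is shown. Capitals mark the CCAAT box in either orientation, CCAAT or ATTGG.
Fth1, chr19:9982496-9982645, plus strand: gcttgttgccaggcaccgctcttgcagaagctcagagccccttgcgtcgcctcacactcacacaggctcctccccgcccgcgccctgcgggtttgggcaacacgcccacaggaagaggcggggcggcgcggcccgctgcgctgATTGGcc
Ftl1, chr7:45459887-45460036, minus strand: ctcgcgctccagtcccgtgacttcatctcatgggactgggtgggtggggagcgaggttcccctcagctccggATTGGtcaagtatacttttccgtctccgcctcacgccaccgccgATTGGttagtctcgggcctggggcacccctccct
Tfrc, chr16:32608746-32608895, plus strand: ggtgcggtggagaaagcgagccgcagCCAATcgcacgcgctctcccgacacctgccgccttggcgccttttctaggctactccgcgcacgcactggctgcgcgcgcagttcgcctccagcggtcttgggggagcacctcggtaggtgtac

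The ferritin promoters both held the inverted form of the box. It began 7 bases before the start in Fth1, and 78 and 34 bases before it in Ftl1. In Tfrc the forward form began 124 bases before the start. Among 32851 promoters of the table, 24.5% held the box on either strand within these 150 bases. The other starts of Fth1 and Tfrc and those of Aco1 and Ireb2 held none there. The Fth1 and Tfrc windows shown were picked for holding it, so nothing is read from the 24.5%. The motif TATAA on the gene's strand lay just after these starts of both ferritin genes, from base 27 in Fth1 and base 18 in Ftl1. Among all promoters 1.74% held it within the first 50 bases. These genes and the Fth1 window were picked, so nothing is read from the 1.74% either. The loop of the iron-responsive element, written CAGTGN and searched on the gene's strand only, was not found in the first 50 bases after any of the 7 starts, and 7.08% of promoters held it there. These matches describe the letters of the windows. They are not shown to be bound. Elements farther from the start were not searched, so a loop not found here does not show that an mRNA lacks the element.

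Of the 22 probe sets, 11 were measured, 3 of them shared with a pseudogene and 1 a control probe set of the manufacturer. The 11 that were not measured had ratios of 0.498 to 1.004, and their widest range was 0.26 log2 units. A measured probe set of its own was found for 5 genes: Slc40a1, Tfrc, Fth1, Slc11a2 and Ireb2. Ferritin light chain was read only on 3 probe sets assigned to both Ftl1 and its pseudogene Ftl1-ps2, and Heph and Aco1 were not measured. Slc40a1 and Tfrc, 2 of these 5, ranged over at least 1 log2 unit, and Slc40a1 alone over 2. Among all 9435 measured genes the shares were 13.0% and 1.52%. The genes were picked with these values known, so nothing is read from that comparison. Without clone 11B, or with all probe sets of a gene averaged, only Slc40a1 reached 1 log2 unit, at 3.46 and 1.74, and Tfrc ranged over 0.67 and 0.94.

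**Figure D1:**
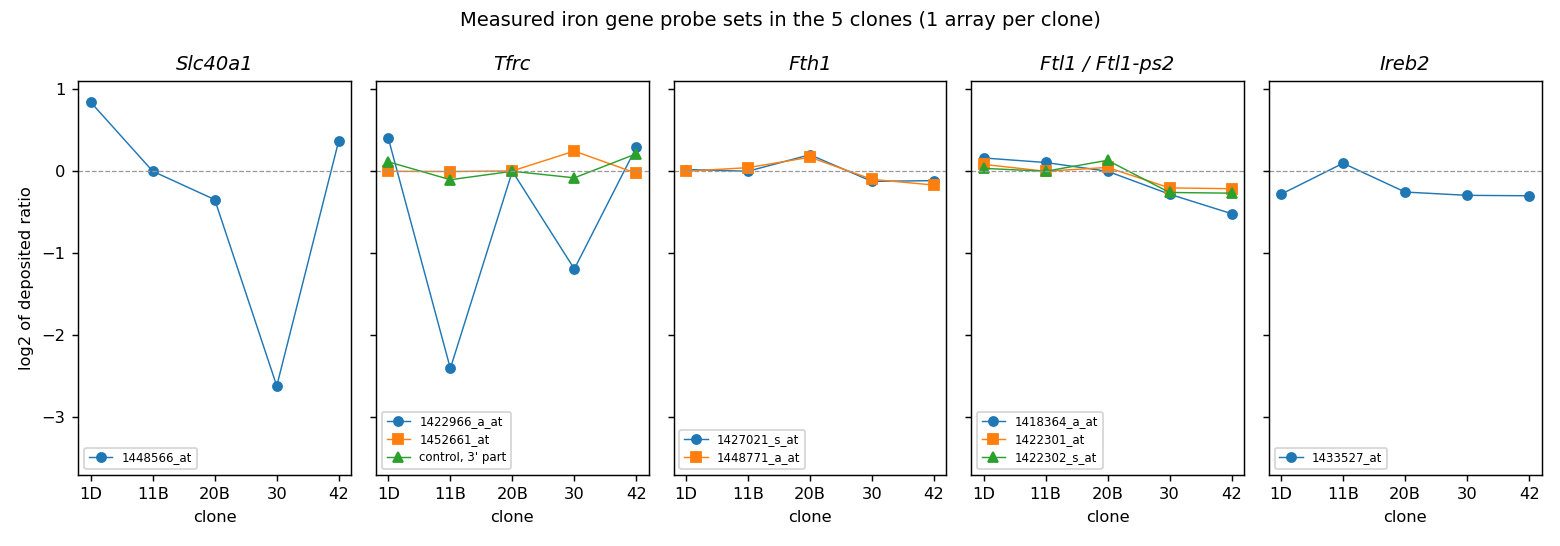
Log2 of the deposited ratio (vertical axis) in each clone (horizontal axis) for every measured probe set of Slc40a1, Tfrc, Fth1, Ftl1 with its pseudogene, and Ireb2, 1 array per clone; each colour is a probe set, lines only join its points, and the dashed line is a ratio of 1. Slc40a1 is lowest in clone 30 at -2.62 and 1 Tfrc probe set in clone 11B at -2.40, while the ferritin points lie between -0.52 and 0.20.

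Export came first in size. On probe set 1448566_at, Slc40a1 had a ratio of 0.163 in clone 30, against 1.792 in clone 1D, 1.295 in clone 42, 1.00 in clone 11B and 0.787 in clone 20B. Clone 30 thus lay below all others, 4.83-fold below clone 20B, the next clone, and 11.0-fold below clone 1D. In log2 units the gap to the next clone was -2.27 and the range 3.46, the 23rd widest of the 9435 measured genes. The rule of 1 log2 unit below all 4 other clones was met by 0.583% of measured genes in clone 30. Slc40a1 was chosen with this value known, so the gap is a description. The other clones stood in the order 1D, 42, 11B, 20B, with gaps of 0.47, 0.37 and 0.35 log2 units between neighbours, near the disagreement of 0.42 between probe sets of the same gene. From end to end of these 4, clone 1D lay 1.19 log2 units above clone 20B.

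The value rests on 1 probe set. The other one for Slc40a1, 1417061_at, stayed under the floor at 0.540 to 0.546 in all clones and could not show a difference, although the annotation gives both the same mRNA record. Averaged with it, the gap of clone 30 was -1.14. Clone 30 had the next to lowest Actb 5' to 3' ratio, 0.743, and clone 11B, with the lowest, 0.597, had a Slc40a1 ratio of 1.00. The part of RNA integrity in the Slc40a1 values was not tested. Macrophages, which recycle iron from red cells, are rich in ferroportin. Of 10 macrophage markers 8 were not measured, Ptprc, Cd68 and Cd14 among them. The 2 measured, Adgre1 and Csf1r, had summed ratios of 1.99 in clone 30 and 1.92 to 2.01 in the other clones. A sum of ratios with different divisors gives no amount of macrophages. Adgre1 was at 0.852 in clone 1D and 0.999 to 1.004 in the others, and Csf1r at 0.989 to 1.069. Ratios this flat need not measure the genes, and a part of macrophages in the Slc40a1 values was not tested.

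Hephaestin, which oxidises iron as ferroportin releases it, had 1 probe set, 1448696_at, with ratios of 0.738 in clone 30 and 0.736 to 0.742 in the other clones. It lay under the floor throughout, so no difference could be read. Ceruloplasmin, the ferroxidase encoded by Cp, had 3 measured probe sets that disagreed. In clone 30 they stood at 1.157, 0.952 and 1.032, against 0.619 to 1.041, 0.864 to 1.17 and 0.938 to 1.377 in the other clones. The second of them, 1417495_x_at, lay under the floor in clones 1D, 30 and 42, where values need not measure the gene.

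The genes whose pattern over the 5 clones was most like that of Slc40a1 were sought among 1215 named genes with a range of at least 1 log2 unit, by the root mean square difference of log2 values centred on the median clone. The nearest was Prrx2, a homeobox gene of mesenchyme, at 0.36 log2 units. Gch1, the first enzyme of tetrahydrobiopterin synthesis, followed at 0.43, Gclm, the regulatory subunit of the enzyme that starts glutathione synthesis, at 0.44, the transcription factor gene Mybl1 at 0.46 and Dmrta2 at 0.46. Prrx2 had a ratio of 0.158 in clone 30, and 1.843 in clone 1D. Gclm had 0.226 in clone 30, against 1.377 in clone 1D, 1.009 in clone 11B, 1.00 in clone 20B and 0.793 in clone 42. All 5 were lowest in clone 30, and each rested on 1 measured probe set. The further probe sets of Gch1, Gclm and Mybl1 were flat, with ratios of 0.758 to 0.771, 0.991 to 1.005 and 0.987 to 1.01.

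**Figure D2:**
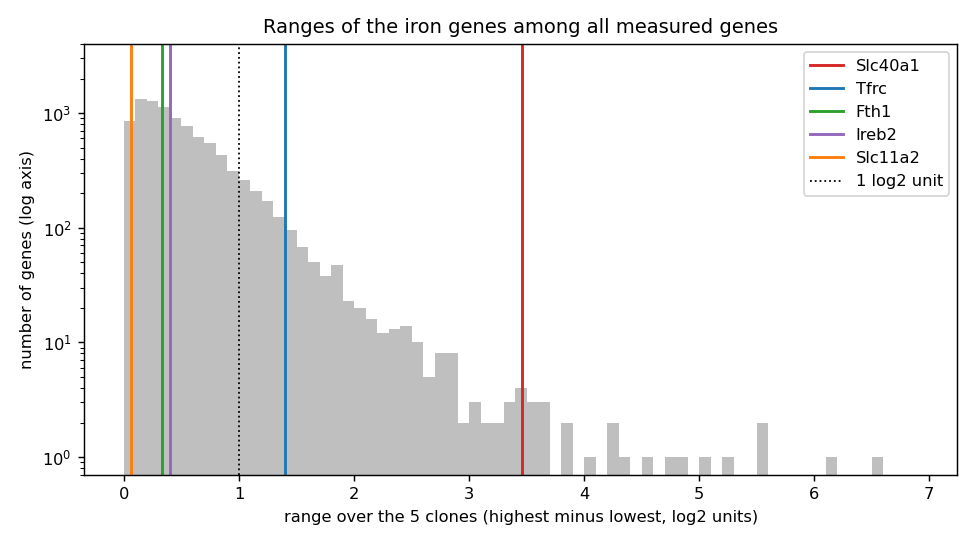
Number of measured genes (vertical log axis) by their range over the 5 clones in log2 units (horizontal axis), with coloured lines at the ranges of the 5 measured iron genes and a dotted line at 1 log2 unit. Slc40a1 at 3.46 lies in the far right tail and Tfrc at 1.40 beyond the dotted line, while Slc11a2 at 0.06, Fth1 at 0.33 and Ireb2 at 0.40 lie within the bulk.

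Uptake was less clear. Probe set 1422966_a_at of Tfrc had its lowest ratio, 0.189, in clone 11B. Clone 30 was at 0.438, clone 1D at 1.32, clone 42 at 1.226 and clone 20B at 1.00. Clone 11B was lowest, 2.32-fold below clone 30, which in turn lay 2.28-fold below clone 20B. These steps were 1.21 and 1.19 log2 units, and those among the 3 higher clones 0.11 and 0.29.

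The other Tfrc probe sets showed no step of that size, and most could not measure the gene. On 1452661_at clone 30 was highest at 1.186, and clones 1D, 11B and 20B had ratios of 1.00, 0.998 and 1.003. Those 3 ratios recurred in the same clones on 1371 other probe sets, so they are a shared level and not a measure of Tfrc. The array also carries the receptor among its controls, in 3 parts of the mRNA. The 3' part had ratios of 0.931 in clone 11B and 0.946 in clone 30, whereas clone 1D had 1.083, clone 20B 1.00 and clone 42 1.159. Clones 11B and 30 were again lowest there, but by 0.10 and 0.08 log2 units below clone 20B. The middle and 5' parts lay under the floor, at 0.944 to 0.956 and 0.889 to 0.902, as did probe set 1422967_a_at at 0.679 to 0.714. On 1422966_a_at alone the range was 2.80 log2 units. Averaged over the 2 measured probe sets, 1452661_at included, Tfrc lay 0.73 log2 units lower in clone 11B than in clone 30, the next clone. Its averaged range was 1.40. With the control part included the range was 1.01, and without clone 11B, leaving the controls out, 0.67.

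The 5', middle and 3' controls of Actb were also lowest in clones 11B and 30. The 5' control of Actb had ratios of 0.491 in clone 11B and 0.691 in clone 30, whereas clone 1D had 1.129, clone 42 1.122 and clone 20B 1.00. This is the same order of clones as on 1422966_a_at. At the middle of Actb the ratios were 0.623 in clone 11B and 0.783 in clone 30, and at the 3' end 0.822 and 0.93. The Gapdh 5' control was lowest in clone 20B at 0.918, with 0.969 in clone 11B and 1.00 in clone 30. The 5' to 3' ratio of Gapdh was lowest in clones 11B and 30, at 0.924 and 1.00. The 18S 5' control had 0.411 in clone 11B, 0.651 in clone 42 and 1.00 in clone 30. Among 2349 measured probe sets that had a median of 1 and ranged over at least 1 log2 unit, 15.6% had clone 11B lowest and clone 30 next. The part of RNA integrity in the Tfrc values was not tested.

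**Figure D3:**
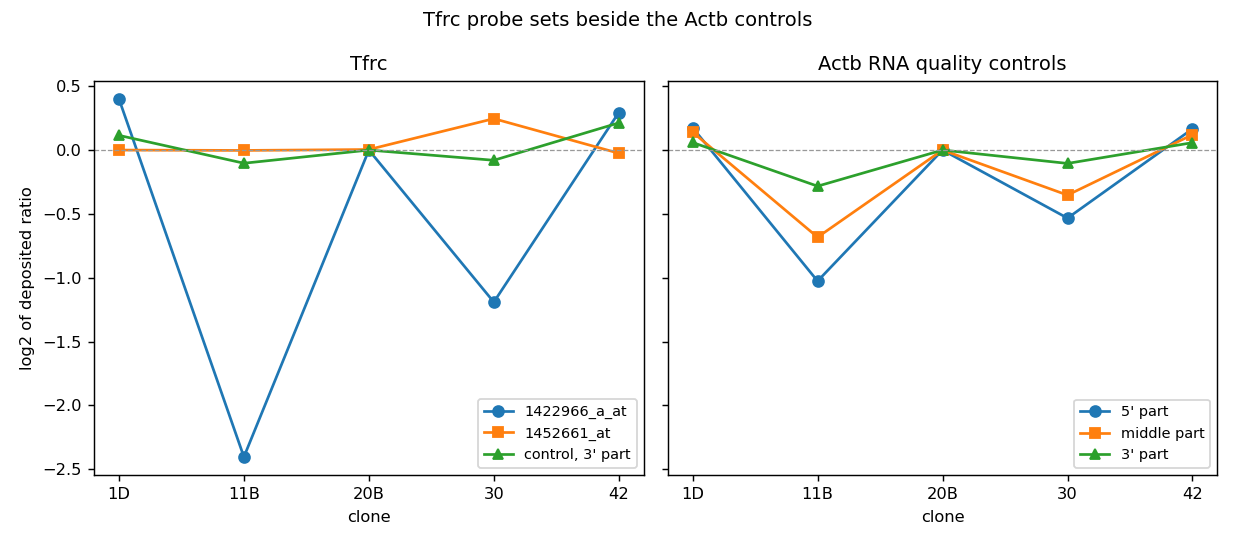
Log2 of the deposited ratio (vertical axis) in each clone (horizontal axis), for 3 Tfrc probe sets on the left and the 5', middle and 3' controls of Actb on the right, 1 array per clone; lines only join the points of a probe set. Tfrc 1422966_a_at and the Actb 5' control both dip in clones 11B and 30, while the 2 other Tfrc probe sets stay between -0.10 and 0.25.

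Slc11a2, the transporter that moves iron out of endosomes, could hardly be followed. Its measured probe set 1452078_a_at had 1.029 in clone 20B and 0.989 to 1.004 in the others, a range of 0.06 log2 units, just over the limit of 0.05. The ratios of clones 1D, 11B, 30 and 42 recurred together on 485 other probe sets, so they do not measure the gene. The 3 further probe sets of Slc11a2 lay under the floor, with ratios of 0.498 to 0.658. On 2 of them, 1441709_at and 1426441_at, clone 1D was highest at 0.658 and 0.643, against 0.550 to 0.555 and 0.576 to 0.582 in the other clones.

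Storage genes differed little, with the same pair of clones lowest on each probe set. Fth1, the heavy chain that oxidises iron on entry, had ratios of 0.918 in clone 30 and 0.924 in clone 42 on probe set 1427021_s_at, whereas clone 1D had 1.015, clone 11B 1.00 and clone 20B 1.15. On 1448771_a_at it had 0.934 in clone 30 and 0.89 in clone 42, whereas clone 1D had 1.00, clone 11B 1.031 and clone 20B 1.126. Clone 20B was highest and clones 30 and 42 were lowest on both.

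The light chain, which helps to form the iron core, was read together with its pseudogene. On 1418364_a_at the ratios were 0.824 in clone 30 and 0.699 in clone 42, whereas clone 1D had 1.119, clone 11B 1.077 and clone 20B 1.00. On 1422302_s_at they were 0.836 in clone 30 and 0.831 in clone 42, against 1.025, 1.00 and 1.097 in clones 1D, 11B and 20B. On 1422301_at, which is also assigned to microRNA genes, they were 0.869 in clone 30 and 0.863 in clone 42, against 1.06, 1.00 and 1.033 in clones 1D, 11B and 20B. All 3 had clones 30 and 42 below the other clones without overlap.

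So on 5 of 5 ferritin probe sets clones 30 and 42 were the lowest, and clone 42 was the lowest on 4 of them. The same split was found on 14.4% of the 12584 measured probe sets that had a median of 1. Clones 30 and 42 lay on average 0.20 log2 units lower for Fth1 and 0.35 lower for the light chain, which is 1.15-fold and 1.28-fold. Differences of 0.19 to 0.49 are near the spread of 0.30 for a single probe set, and probe sets of 1 gene share its RNA, so they are not 5 independent readings. The split was noticed in these values and is given as a description. The Actb 5' to 3' ratio was 0.743 in clone 30 and 1.078 in clone 42, whereas it was 0.597 in clone 11B, 1.00 in clone 20B and 1.083 in clone 1D.

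Markers of fibroblasts and mesenchyme were mixed, and of these the measured collagen genes were lowest in clone 42. Of 9 such markers 4 were measured, on 7 probe sets, with summed ratios of 8.26 in clone 30 and 6.66 in clone 42, against 6.24 to 6.96 in the other clones. Such a sum adds ratios with different divisors, 3 of them of Pdgfra, so it gives no amount of mesenchyme. The collagen gene Col3a1 had a ratio of 0.012 in clone 42, against 0.864 in clone 30 and 1.00 to 1.179 in the others. Col1a1 had 0.105 in clone 42 on 1423669_at, against 1.581 in clone 30 and 0.733 to 1.052 in the others. Both genes were thus lowest in clone 42 and not in clone 30. Pdgfra, a growth factor receptor of mesenchyme, had 1.633 in clone 30 and 2.211 in clone 42 on 1421917_at, against 0.304 to 1.00 in the others, so there both were highest. Its other probe sets were highest in clone 42 at 1.984 and in clone 30 at 1.308. Postn had 0.882 in clone 30 and 0.87 in clone 42, against 0.879 to 1.06. It counts as measured only through clone 11B, at 1.06, and lay under the floor in the other clones, where values need not measure the gene. Col1a2, Pdgfrb, Thy1, Dcn and Tcf21 were not measured. The parts of RNA integrity and of such differences between the clones in the ferritin values were not tested.

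The sensors were near the limit of the data. Ireb2 encodes the regulatory protein that is degraded when iron is plentiful. Its only probe set, 1433527_at, had 1.07 in clone 11B, against 0.813 to 0.839 in the other clones, all under the floor. The probe set counts as measured only through clone 11B, so that clone being highest, by 0.35 log2 units, was fixed by the filter. The size is uncertain because values under the floor need not measure the gene. Set to the floor, the range of 0.40 became 0.10. Aco1, whose protein is either an aconitase or a regulator depending on its iron-sulphur cluster, had no measured probe set. On 1456728_x_at its 5 ratios, 0.989 to 1.004, recurred together on 355 other probe sets. The others lay under the floor at 0.511 to 0.603, with clone 30 highest, and at 0.639 to 0.642.

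Between pairs of clones, Slc40a1 was at least 1 log2 unit lower in clone 30 in all 4 of its pairs, and lower in clone 20B than in clone 1D by 1.19. In the pairs of clone 30 with 1D, 11B, 20B and 42, 2.97%, 2.35%, 2.56% and 2.26% of measured genes were lower in clone 30 by that size, and 0.625% in clone 20B than in clone 1D. Tfrc, averaged over its 2 measured probe sets, was lower in clone 11B than in clones 1D, 20B and 42 by 1.40, 1.21 and 1.34. In those pairs 2.23%, 1.14% and 2.33% of measured genes were lower in clone 11B by that size. On 1422966_a_at alone, clone 11B also lay 1.21 below clone 30, and clone 30 lay 1.19 below clone 20B, the next clone. Fth1, Slc11a2 and Ireb2 reached that size in none of the 10 pairs. The pairs share clones and are not separate evidence.

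A further 85 genes of iron handling, in 6 lists, were set beside these. Of them 54 were measured, and 7 ranged over at least 1 log2 unit (13.0%, the same share as among all measured genes); none reached 2. Their median range was 0.50 log2 units, against 0.41 over all measured genes. With all probe sets of a gene averaged, only 3 reached 1 log2 unit.

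Among 9 measured genes of uptake and transfer, Steap3, the reductase that prepares iron for release from endosomes, was highest in clone 42. Its ratios there were 1.567 and 2.569 on 2 probe sets, against 0.91 to 1.121 and 0.792 to 1.00 in the other clones. The averaged excess over the next clone was 0.92 log2 units. Steap1, of the same family, was lowest in clone 30 at 0.447 on 1451532_s_at, against 0.864 to 1.248 in the other clones. Its other measured probe set had 0.999 in clone 30, against 0.932 to 1.021. Slc22a17, a receptor for lipocalin, was highest in clone 30, by 0.56, but clones 1D, 11B and 20B were at the ratios shared with 1371 other probe sets. Lrp1, a receptor that clears haem bound to hemopexin, ranged over 0.41.

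None of 10 measured genes of the ferroportin and hepcidin list ranged over 1 log2 unit, though 2 came close. Fbxl5, the iron-sensing subunit of the ligase that degrades the product of Ireb2, was highest in clone 11B at 1.461, against 0.731 in clone 1D and 0.998 to 1.105 in the rest. That range was 0.999. Hif1a, a subunit of the hypoxia factor, averaged a range of 0.99. On 1448183_a_at it had 0.227 in clone 11B and 0.445 in clone 30, against 1.769, 1.00 and 1.072 in clones 1D, 20B and 42, the order seen for Tfrc, while its other measured probe sets spanned 0.13 and 0.06. Nfe2l2, a factor of the antioxidant response that can raise Slc40a1 and ferritin transcription, was lowest in clones 42 (0.786) and 30 (0.902), against 1.00 to 1.301 in the others. A part of Nfe2l2 in the Slc40a1 or ferritin values was not tested. Neo1, a co-receptor of hemojuvelin, ranged over 0.90, with clone 30 highest.

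Of 6 measured genes of ferritin turnover and mitochondrial iron, Sfxn1, a carrier of the inner mitochondrial membrane, had the widest range, 1.80. It had 0.387 in clone 11B and 0.64 in clone 30 on 1417559_at, against 2.404, 1.00 and 1.834 in clones 1D, 20B and 42. Ncoa4, the receptor that delivers ferritin to lysosomes, was at 1.168 in clone 42 and 0.991 to 1.009 in the others. Herc2, Abcb8 and Slc25a28, a mitochondrial iron importer, ranged over 0.76, 0.56 and 0.30.

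Of 14 measured genes of iron-sulphur cluster assembly 3 passed 1 log2 unit. Nfs1, the desulfurase that supplies sulphur, was lowest in clone 11B at 0.473, followed by clone 30 at 0.737, against 1.00 to 1.231 in the others. Isca1, a scaffold protein, was highest in clone 1D at 1.595 and lowest in clone 30 at 0.737. Hspa9, the mitochondrial chaperone, was highest in clone 1D, at 1.477 and 2.81 on its measured probe sets, against 0.897 to 1.161 and 0.997 to 1.015 in the others. Fdx1, a ferredoxin, ranged over 0.96. Of 12 probe sets in the 6 lists that had a median of 1 and a range of at least 1 log2 unit, those of Sfxn1, Hif1a and Nfs1 had clone 11B lowest and clone 30 next, a count of 3 beside the 15.6% of all such probe sets.

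Of 11 measured haem genes 2 passed 1 log2 unit. Hmox1, the inducible oxygenase that frees iron from haem, was lowest in clone 1D at 0.43, against 0.986 to 1.148 in the others. Its gap of -1.20 log2 units made it the only one of the 54 genes that lay 1 log2 unit or more beyond all 4 other clones; in clone 1D, 0.138% of measured genes lay that far below. The ratios of clones 20B, 30 and 42 on this probe set recurred together on 355 others, so the size of the gap is uncertain. Clone 1D was also the highest in Slc40a1, at 1.792. Hmox2, the constitutive oxygenase, was highest in clones 42 (1.636) and 30 (1.522), against 0.665 to 1.00 in the others. Blvrb, a biliverdin reductase, was highest in clone 1D at 1.779, and Urod, an enzyme of haem synthesis, lowest in clone 30 on both probe sets, at 0.594 and 0.693.

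Among 5 measured genes of other mRNAs with a known iron-responsive element, none passed 1 log2 unit. Cdc42bpa and App ranged over 0.64 and 0.63, Epas1, a hypoxia factor, over 0.45 and Sdhb over 0.27. Epas1 counts as measured only through clone 30, at 1.205, and lay under the floor at 0.885 to 0.914 in the other clones. Of 9 markers of red cell precursors, in which haem is made in quantity, only Epor was measured, at 0.787 to 1.159.

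**Figure D4:**
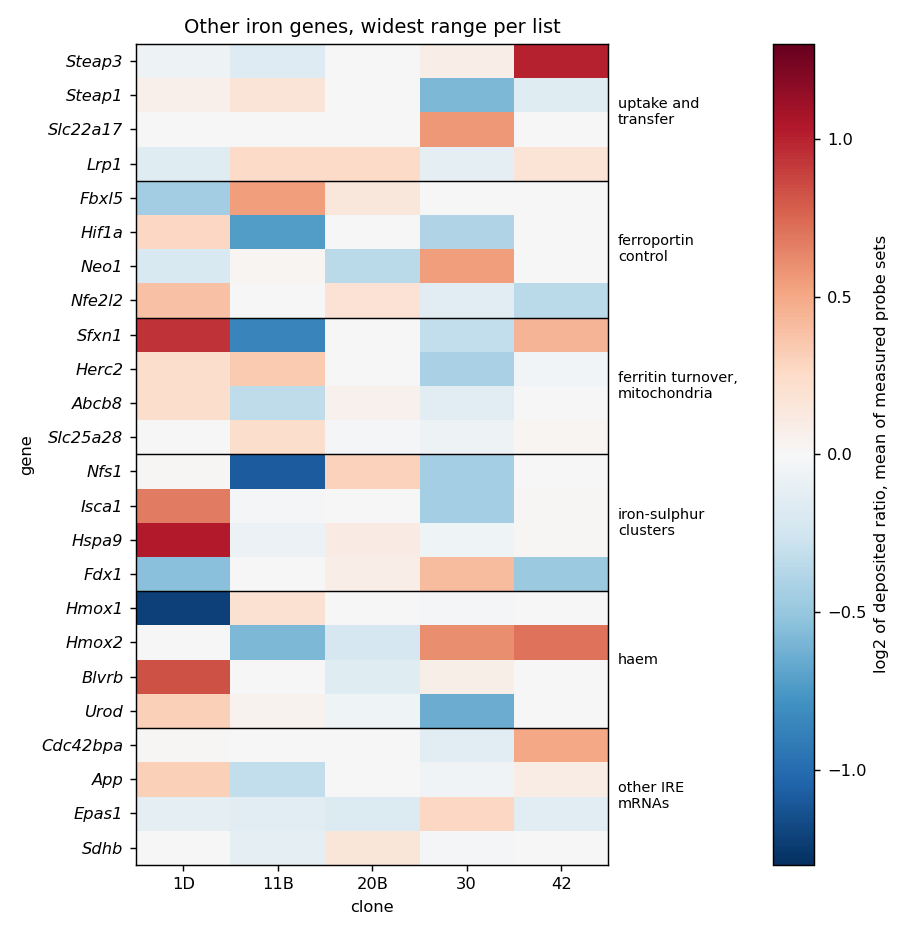
Heat map of the mean log2 ratio of the measured probe sets (colour scale) in each clone (columns) for the 4 genes of widest range in each of 6 further iron lists (rows), 1 array per clone. Hmox1 is low in clone 1D (-1.22), Hspa9 high in clone 1D (1.03), Steap3 high in clone 42 (1.00) and Nfs1 low in clone 11B (-1.08).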

How the data were processed

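Total RNA of 5 clones was measured on Affymetrix arrays, 1 per clone, and groups were taken from the clone label. RMA and GCRMA appear in the submitters' processing notes; their roles are not given in the sources used here. The deposited values are read as a ratio on a linear scale, relative to each probe set's median clone or to a floor; no header or label states this division, and scanner files were not used here. Signal over background cannot be recovered from such values, and precision is limited by the number of arrays. Gene names came from the platform annotation, with symbols updated by gene ID through a RefSeq table of GRCm38.p6: 34958 had 1 symbol, 932 several and 9211 none. A gene's value is the mean log2 ratio over its measured probe sets, without the 64 control probe sets, which left 9435 genes, 6388 of them on 1 probe set. Ftl1 probe sets have several symbols and were described by probe set. With no replicates no test was run. Errors were estimated from pairs of probe sets of the same gene. The code was tested on simulated data (Python 3.11.15, pandas 2.3.3).

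The members and gene lists were chosen with earlier results of these data known. Named genes were all members, up to 4 measured genes of widest range in each other list and the 5 most like Slc40a1, leaving out predicted gene models. Cp, Ncoa4 and the marker genes were named after their values were seen. Alternatives were quantile normalization, median centring, other ways to combine probe sets, no cross-hybridizing probe sets, values raised to the floor, no filter, and leaving out each clone.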

Additional observations from a re-analysis of the deposited data

How the results depend on the processing

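The deviation of Slc40a1 in clone 30 from the next clone was -2.27 log2 units. Quantile normalization gave -2.03 and median centring -2.26. The deviation was -1.14 with every probe set averaged or with no filter, where the probe set under the floor is included. The other ways to combine or filter probe sets rested on the same probe set and gave -2.27 again. With a clone left out it was -2.27 to -2.62, -2.62 being without clone 20B, and without clone 30 it has no value. Clone 30 is the lowest, so leaving out another clone could not reverse the direction. The deviation of Tfrc in clone 11B, -0.73, changed sign to 0.022 where the probe set with the highest mean stood alone. That setting replaces the probe set that carries the difference. With a clone left out the deviation was -0.73 to -1.21, with -1.21 being without clone 30. Clone 11B is the lowest, so leaving out another clone could not reverse the direction. The number of iron genes ranging over 1 log2 unit, 2, was 1 with every probe set averaged, with no filter or on the highest-mean probe set, and 1 to 2 with a clone left out, Tfrc being lost without clone 11B. The count over all genes, 1229, was 681 with every probe set averaged or with no filter, and 772 to 1067 with a clone left out, the lowest without clone 30. That of other iron genes, 7, was 3 with every probe set averaged or with no filter, and 4 to 7 with a clone left out, the lowest without clone 1D. The split of the ferritin probe sets was kept by 5 of 5 after quantile normalization and after median centring. It was also kept by 5 of 5 without clone 1D, 11B or 20B, and by the 3 that remained without cross-hybridizing probe sets. Leaving out any of those clones or probe sets could not break the split, so these settings do not test it. The ferritin checks, those of Tfrc and of the other iron genes, and the inclusion of control probe sets were chosen after seeing the data. The range of Ireb2, 0.40, was 0.05 without clone 11B. No paired analysis was possible because each clone has 1 array. Signal over background is not known, so differences under the floor cannot be judged.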
